A study of Mus musculus with 6 samples.

Results

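The genes described here are the mouse matrix metalloproteinases (MMPs), the ADAMTS proteases and the tissue inhibitors of metalloproteinases (TIMPs). Members were taken by gene symbol alone, but these families were chosen with earlier results of the same data known. Of the 24964 genes in the deposited table, 46 belong to them: 23 MMPs, 19 ADAMTS proteases and 4 TIMPs. ADAMTS-like genes, which encode no protease, were left out of the members. RNA was sequenced from uterine tissue around the places where embryos had implanted, on gestation day 13, in 6 libraries. There were 3 control libraries, with the genotype given only as control, and 3 libraries labelled as a myometrial knockout of PGR, the progesterone receptor; the myometrium is the muscle layer of the uterus. The sources used here do not give strain, age, parity, how the receptor was removed from muscle, or whether each library came from 1 animal. The p-values therefore cover the spread between these 6 libraries and nothing beyond it, and that spread may be technical.

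MMPs are zinc-dependent enzymes that cut collagens, laminins, proteoglycans and other proteins outside the cell. Most are made as inactive precursors, and TIMPs block the active enzymes by binding their catalytic site. ADAMTS proteases share the zinc-dependent catalytic domain and carry thrombospondin repeats that hold them in the matrix. They trim procollagens, cut large proteoglycans such as versican and aggrecan, and act on microfibrils. In the pregnant uterus these enzymes take part in decidual remodelling, vessel growth and, around birth, softening of the tissue.

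The values are FPKM, fragments on a gene scaled to its length and to library size, so levels of different genes can be compared. The table holds no counts, and the depth of single libraries is unknown. Among low values, the commonest ratio to control 1 was between 1 and 1.01 in each other library. That ratio held for 105 to 139 genes of the 1877 to 2120 compared. Whether 1 read was worth the same in every library was not measured. Summed FPKM lay between 357126 and 377091 per library. Control 3 and knockout 3 (the third library under each label) were the least like their group, with log2 correlations across genes of 0.982 to 0.983 with the other controls and 0.971 to 0.976 with the other knockout-labelled libraries, against 0.992 and 0.991 between the first and second. Pgr itself had levels of 9.72, 8.33 and 12.1 FPKM in control libraries, against 11.3, 12.4 and 7.73 FPKM in the other group, so its level did not bear out the label, and the second group is called the knockout-labelled libraries (knockout 1, 2 and 3). The sources used here do not say which part of Pgr was removed, and the tissue was not muscle alone, so this check is weak. All directions rest on that label. Smooth muscle, epithelial, fibroblast, endothelial and macrophage markers were present in every library. The 11 trophoblast markers together summed to 1.08 to 2.20 FPKM in controls and 0.431 to 1.39 FPKM in the other group; Prl2c2 reached 1.48 FPKM, Ascl2 lay between 0.218 and 0.52 FPKM, and Gcm1, Hand1, Ctsq and Synb were listed at 0 in every library. A listed 0 may not mean an absent transcript, since 4 haemoglobin genes were also listed at 0 in every library while Alas2, an enzyme of haem synthesis in red blood cells, reached 23.9 FPKM.

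Of the 46 members, 30 averaged 1 FPKM or more across all libraries and were tested: 13 MMPs, 14 ADAMTS proteases and 3 TIMPs. The 16 others did not exceed 0.754 FPKM in any library, and 6 of them were listed at 0 in at least 1 library. The most abundant member was Timp2, with a mean of 167.3 FPKM over the 6 libraries, and it supplied between 65.5% and 73.7% of the summed FPKM of the TIMPs. Among the proteases, Mmp14 (99.4 FPKM), Mmp2 (80.9 FPKM), Adamts1 (53.8 FPKM), Mmp23 (49.1 FPKM) and Adamts2 (41.2 FPKM) had the highest means. Mmp14, Mmp2, Mmp23 and Mmp17 together made up between 61.4% and 83.2% of the summed MMP level, and Adamts1, Adamts2 and Adamts9 between 63.8% and 74.3% of the summed ADAMTS level. The RNA of these families was thus concentrated in a few genes in every library.

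**Figure D1:**
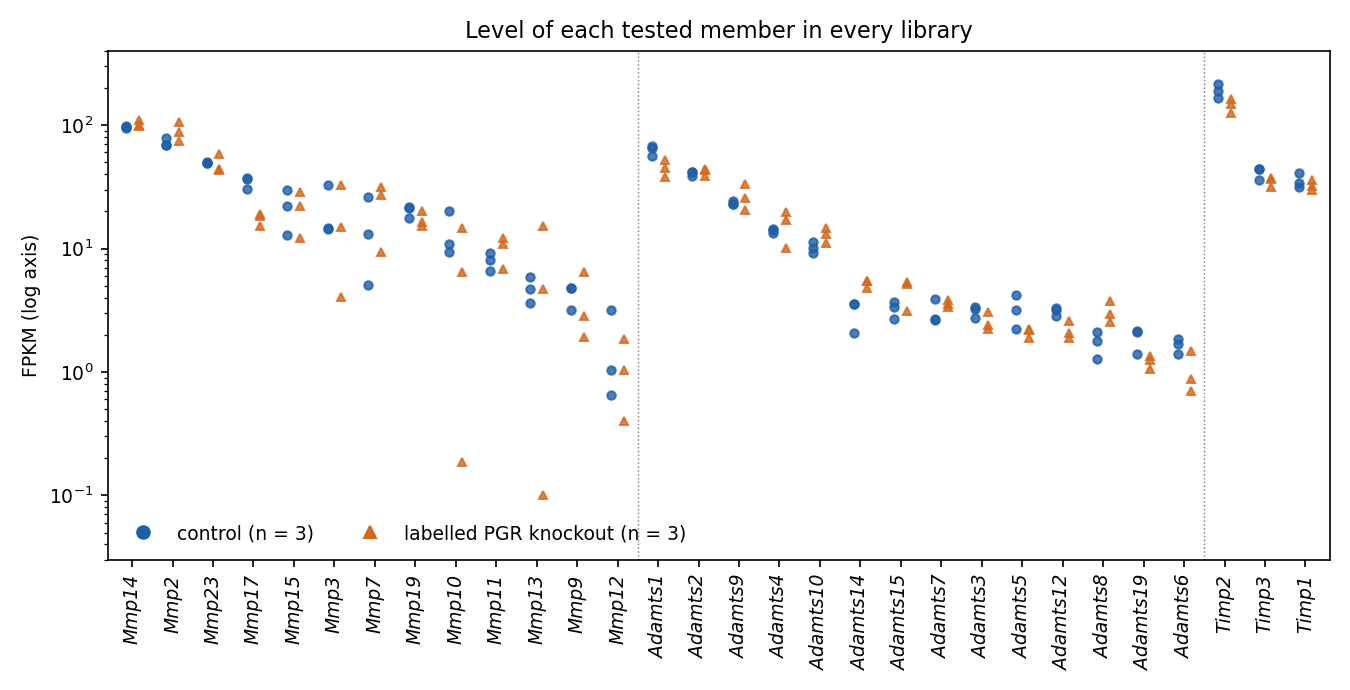
Level of the 30 tested members in each library, in FPKM on a log axis, ordered within MMPs, ADAMTS proteases and TIMPs by mean level (circles, 3 control libraries; triangles, 3 knockout-labelled libraries). The groups of Mmp17 lie clearly apart, while Mmp10 and Mmp13 span from above 10 FPKM to 0.187 and 0.101 FPKM.

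Of the 30 members tested, 1 passed an adjusted p of 0.05 with limma, Mmp17, which was lower in the knockout-labelled libraries, and 0 were higher. That is 3.33% of the members, against 3.34% of the 12500 genes tested (1.34% higher and 1.99% lower), so members passed at the background rate. At an unadjusted p under 0.05 there were 9 members (30.0%), 3 higher and 6 lower, against 21.5% of all genes tested. The groups did not overlap for 7 members (23.3%, against 29.0% of all genes tested). Of these 7, 2 were higher (6.67%, against 20.8%) and 5 lower (16.7%, against 8.16%). The log2 difference was above 0 for 12 of the 30 members, while it was above 0 for 64.9% of all genes tested. The median over the members tested was -0.16 on the log2(FPKM + 1) scale, against 0.06 over all genes tested. Without the third knockout-labelled library the members' median was 0.02, and without the third library of both groups it was 0.0058. In that last fit 5 members were called, 2 higher and 3 lower (16.7%, against 10.2% of all genes tested there), and with array weights 4 were called, 1 higher and 3 lower (13.3%, against 14.2%), so calls rose over all genes as well. The 16 members below the filter have no part in these counts.

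**Figure D2:**
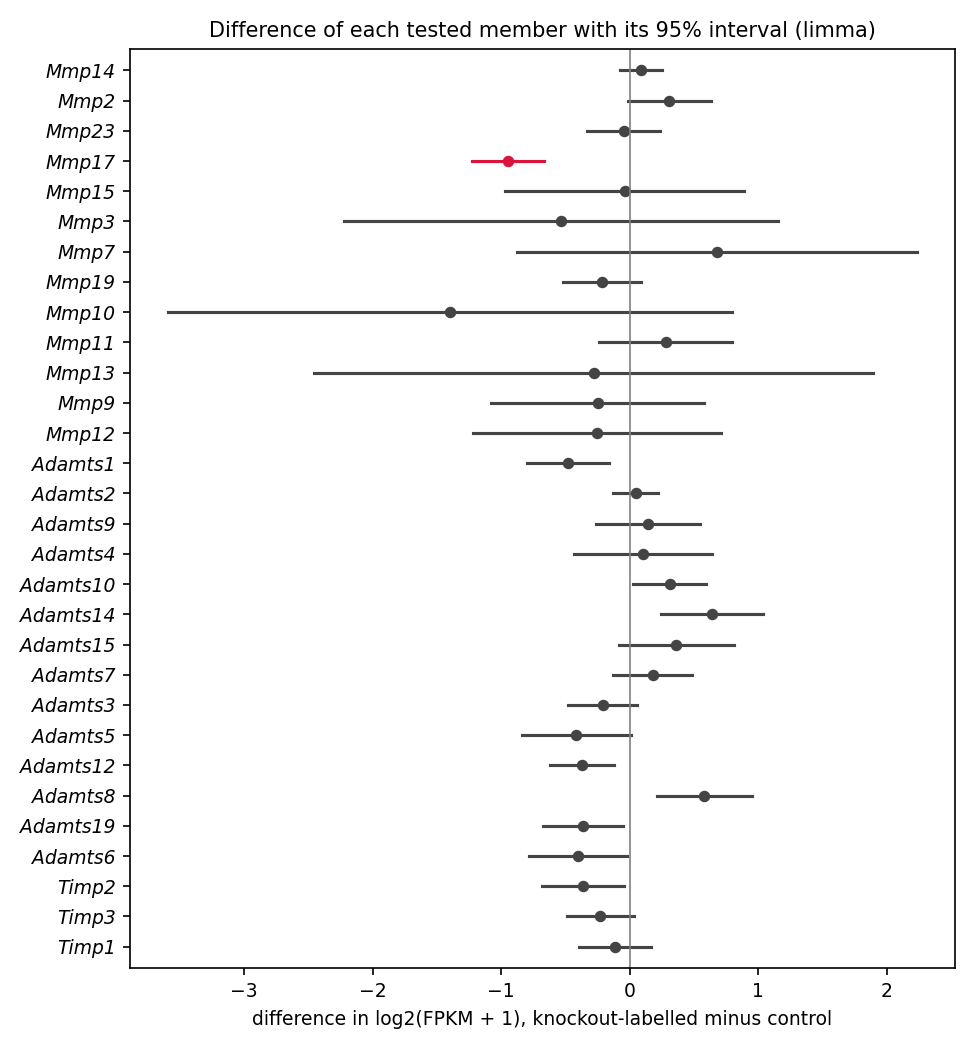
Difference in log2(FPKM + 1), knockout-labelled minus control, for the 30 tested members, with 95% confidence intervals from limma; red marks the member with an adjusted p under 0.05. Mmp17 lies at -0.95, and the widest intervals are those of Mmp10, Mmp13 and Mmp3.

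Mmp17 encodes a membrane-type MMP held at the cell surface by a glycosylphosphatidylinositol (GPI) anchor. The gene is on the plus strand of chromosome 5, at 129584169 to 129611099 of GRCm38 (also called mm10), and GENCODE M21 has no other gene overlapping it. Its level was 30.1, 36.4 and 37.5 FPKM in the controls and 15.3, 19.0 and 18.2 FPKM in the knockout-labelled libraries. Every control lay well above every knockout-labelled library. The means were 34.7 ± 4.0 and 17.5 ± 1.9 FPKM (SD, n = 3 each), 1.98 times lower, and the log2 difference was -0.95 (SE 0.12, adjusted p = 0.014 by limma). The adjusted p lay between 0.0069 and 0.069 over the alternatives, and the call was lost with no filter on low values (0.064) and without control 2 (0.069). Its log2 difference stayed between -1.04 and -0.86.

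Smooth muscle markers moved with Mmp17. All 8 of the list (Myh11, Acta2, Actg2, Des, Cnn1, Tagln, Smtn and Lmod1, genes of the contractile apparatus) were lower by limma, by 1.67 to 4.72 times. Their summed level was 8070 to 9848 FPKM in the controls and 3262 to 3845 FPKM in the knockout-labelled libraries. Within the controls, the marker sum was lowest in control 3 (8070 FPKM), the control in which Mmp17 was highest (37.5 FPKM). Mast cell markers were lower as well, 4 of 5 tested, with sums of 29.0 to 35.8 FPKM and 3.00 to 5.36 FPKM. Epithelial markers had 2 of 8 called higher and sums of 762.2 to 900.7 FPKM and 893.3 to 1279 FPKM. Red blood cell markers, 7 genes with only Alas2 tested, summed to 2.97 to 6.18 FPKM and 13.2 to 25.6 FPKM, and Alas2 was higher (adjusted p = 0.029 by limma). Uterine natural killer cell markers, 11 genes with 1 tested and 0 called, summed to 2.93 to 4.14 FPKM and 4.49 to 10.8 FPKM. The highest of these sums, in knockout 3, held 5.53 FPKM of Gzmc, which was at 0.784 and 0.466 FPKM in knockout 1 and 2. Prf1 averaged 0.507 FPKM in both groups, while Ncr1 averaged 0.476 FPKM in the controls and 0.878 FPKM in the other group. Fibroblast markers, 8 genes with 0 called, summed to 4539 to 4857 FPKM and 4066 to 4273 FPKM, with Col1a1 and Col3a1 the largest parts. The sums were lower without overlap, but not all 8 genes moved that way. Without overlap, 4 were lower and 1 higher, against 8.16% and 20.8% of all genes tested. The higher one was Pdgfra, with means of 23.6 FPKM in the controls and 32.6 FPKM in the knockout-labelled libraries. The part of these cell types in the difference was not tested. In tissue samples of this kind, fewer cells of a type and less RNA per cell cannot be told apart.

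**Figure D3:**
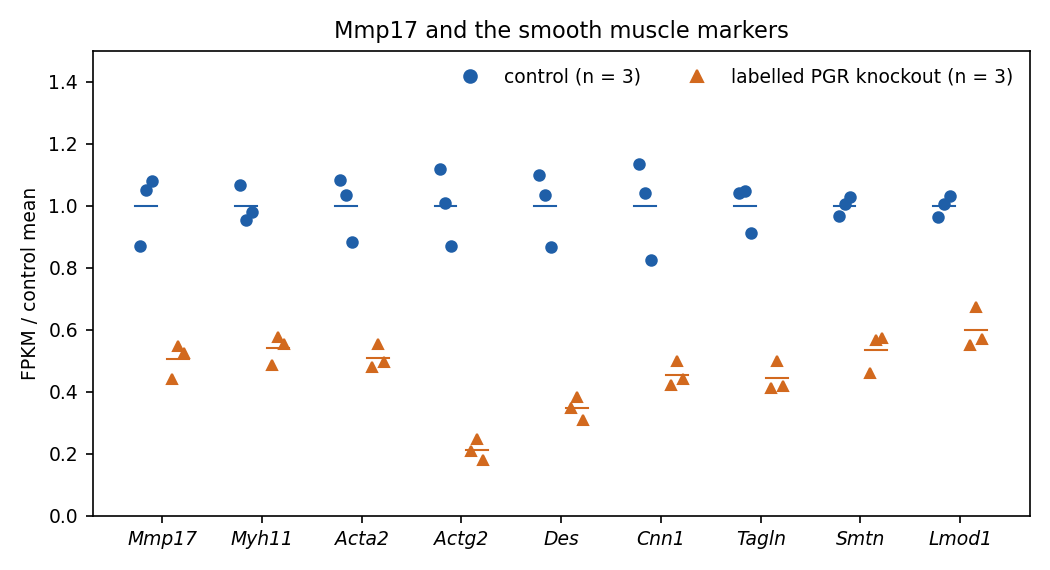
Mmp17 and 8 smooth muscle markers in each library, as FPKM divided by the control mean of that gene (circles, controls; triangles, knockout-labelled libraries; bars, group means). The control mean is 1 by construction, and for all 9 genes the 3 knockout-labelled libraries lie below the 3 controls.

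The other membrane-type MMPs tested, which span the membrane, did not differ beyond their spread. Mmp14, which activates the precursor of the gelatinase Mmp2 at the cell surface, was at 95.8, 94.4 and 98.7 FPKM in the controls, against 99.7, 109.1 and 98.5 FPKM in the knockout-labelled libraries. It was among the steadiest members, with a highest level 1.16 times its lowest, a log2 difference of 0.09 and a 95% confidence interval from -0.08 to 0.25 (adjusted p = 0.50 by limma). Mmp15, its close relative, ranged from 12.9 to 29.9 FPKM in the controls and from 12.1 to 28.7 FPKM in the knockout-labelled libraries. The groups of Mmp15 covered the same range, and its sign turned under 6 alternatives. Mmp16 and Mmp24, the remaining transmembrane members, and Mmp25, the other GPI-anchored one, were below the filter.

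Of the gelatinases, which cut denatured collagen and basement membrane collagen, Mmp2 was at 68.9, 77.8 and 68.9 FPKM in the controls, against 88.6, 74.8 and 106.2 FPKM in the knockout-labelled libraries. The second knockout-labelled library lay within the control range, and the log2 difference of 0.31 (SE 0.13) did not pass (adjusted p = 0.25 by limma). Mmp9 was far lower, at 3.19 to 4.82 FPKM and 1.94 to 6.49 FPKM, with overlapping groups. Mmp23, an MMP made with its own membrane anchor, was close to 50 FPKM in the controls (50.6, 49.0 and 49.5) and more scattered in the other group (43.5, 44.0 and 58.0). Its log2 difference was -0.05 (SE 0.12). Mmp11 and Mmp19, secreted MMPs, had log2 differences of 0.28 and -0.22 and did not pass. Mmp19 passed, lower, with array weights (adjusted p = 0.049 by limma) and without the third library of both groups (0.034), and its adjusted p lay between 0.034 and 0.68 over the alternatives.

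Of the 23 MMP genes, 10 stand close together on chromosome 9, from 7272514 to 7699585 (GRCm38), a stretch of 427 kb whose end lies 1.2 Mb from the start of Pgr. The cluster holds the collagenases Mmp13, Mmp8, Mmp1a and Mmp1b, the stromelysins Mmp3 and Mmp10, the metalloelastase Mmp12, the matrilysin Mmp7, the tooth enamel protease Mmp20 and Mmp27. GENCODE M21 lists Mmp1a as a polymorphic pseudogene. Of these 10, 5 were tested (Mmp3, Mmp7, Mmp10, Mmp12 and Mmp13), 0 passed and 5 were below the filter. Of the 46 genes of the table within 5 Mb of Pgr, Pgr and the cluster included, 25 were tested and 0 passed limma. An unadjusted p under 0.05 was found for 4, against 21.5% of all genes tested. With array weights 1 of the 25 was called, lower, against 14.2% of all genes tested called in that fit.

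The promoters of the cluster are shown because these neighbouring genes shared motifs that the other members' windows mostly lacked. RefSeq windows (GRCm38.p6, from 250 bases before a start to 50 after it) were matched for 32 of the 46 members, with 35 windows. The AP-1 motif TGANTCA, searched on both strands, was found in 8 of the 10 cluster members and in 0 of the 22 other members matched, against 7.81% of all 32851 windows. AP-1 is the dimer of Fos and Jun family proteins, long known to act on collagenase and stromelysin genes. Its first letter lay between 35 and 95 bases before the start. The TATA box TATAAA was found in 9 of the 10 and in 2 other members, Adamts1 and Mmp21, against 13.6% of all windows. Both motifs stood in the windows of 8 cluster members, against 1.54% of all windows. The ETS motif AGGAAG was in 7 of the 10 and in 8 others (35.4% of all windows). The palindromic element bound by progesterone, glucocorticoid and androgen receptors was in 0 of the member windows (0.475% of all windows). These are matches of letters, which say nothing on whether a factor was bound. Among the 8 cluster members with the AP-1 motif, Mmp1a, Mmp1b and Mmp20 were at or near 0 in every library. The 120 bases before the start of 6 cluster members read as follows, 5′ to 3′ on the plus strand. AP-1 and TATA box matches that lie wholly within these bases are in capitals.
Mmp3, chr9:7445702-7445821: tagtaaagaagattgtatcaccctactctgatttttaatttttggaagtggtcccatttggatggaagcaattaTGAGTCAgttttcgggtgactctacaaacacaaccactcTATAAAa
Mmp10, chr9:7502222-7502341: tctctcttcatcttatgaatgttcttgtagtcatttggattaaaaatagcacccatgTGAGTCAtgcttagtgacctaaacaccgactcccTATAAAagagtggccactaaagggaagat
Mmp12, chr9:7347254-7347373: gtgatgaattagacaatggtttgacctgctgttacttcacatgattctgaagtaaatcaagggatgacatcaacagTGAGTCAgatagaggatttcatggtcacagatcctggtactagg
Mmp13, chr9:7272394-7272513: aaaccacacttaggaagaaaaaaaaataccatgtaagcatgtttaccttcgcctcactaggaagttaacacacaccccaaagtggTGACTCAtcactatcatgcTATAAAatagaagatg
Mmp7, chr9:7691970-7692089: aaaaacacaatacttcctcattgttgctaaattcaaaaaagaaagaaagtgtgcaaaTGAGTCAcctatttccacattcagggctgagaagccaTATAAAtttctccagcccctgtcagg
Mmp8, chr9:7558309-7558428: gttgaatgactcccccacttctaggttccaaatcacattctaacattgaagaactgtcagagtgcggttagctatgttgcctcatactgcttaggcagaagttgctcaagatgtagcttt
The line for Mmp12 is from the later of its 2 windows, the one with an AP-1 match. The TATA match of Mmp12 begins after the start, outside the bases shown, and that of Mmp3 begins only 7 bases before the start. Mmp7 has a further TATA match that begins 123 bases before the start, and its last letters open the Mmp7 line in lower case. Mmp8 has neither motif in this stretch and is shown for contrast. Its TATA match, on the other strand, spans the start and lies partly outside the bases shown.

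Levels of the 5 tested cluster members differed far more between libraries of one group than between groups. Mmp3, a stromelysin that cuts proteoglycans and fibronectin and activates other MMPs, was at 14.4, 33.0 and 14.7 FPKM in the controls, against 14.8, 32.9 and 4.02 FPKM in the knockout-labelled libraries. Mmp10, the other stromelysin, was at 10.8, 20.0 and 9.45 FPKM and at 6.48, 14.8 and 0.187 FPKM. Mmp13, a collagenase, was at 3.65, 5.92 and 4.70 FPKM and at 4.74, 15.2 and 0.101 FPKM. In all 3 genes the second library was the highest of its group and the third knockout-labelled library the lowest of the 6. Mmp12, the elastase of macrophages, had the same order within these limits, at 1.03, 3.15 and 0.645 FPKM and 1.03, 1.84 and 0.402 FPKM. Mmp7, an enzyme of epithelium, was at 13.1, 26.2 and 5.04 FPKM and at 27.1, 31.7 and 9.33 FPKM. Its second libraries were also the highest, but its lowest value was in control 3.

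The highest level was 150.6 times the lowest for Mmp13 and 106.9 times for Mmp10, against a median of 1.35 times over all genes tested. A ratio above 10 was found for these 2 members and for 1.02% of all genes tested. The order seen in Mmp3, Mmp10, Mmp12 and Mmp13 (library 2 highest in both groups, knockout 3 lowest of the 6), noted after the values were seen, was shared by Timp1 and by 4.44% of all genes tested. Between the groups, the log2 differences were -1.40 for Mmp10 (SE 0.91), -0.53 for Mmp3 (SE 0.70), -0.28 for Mmp13 (SE 0.90), -0.26 for Mmp12 (SE 0.40) and 0.68 for Mmp7 (SE 0.65), with limma adjusted p between 0.42 and 0.88. Without the third knockout-labelled library, the differences of Mmp10, Mmp3, Mmp12, Mmp13 and Mmp7 were -0.34, 0.20, 0.00072, 0.76 and 1.20, and that of Mmp7 was 0.11 without control 3. The 95% confidence intervals of the log2 difference were -3.59 to 0.79 for Mmp10, -2.22 to 1.15 for Mmp3, -2.46 to 1.89 for Mmp13, -1.22 to 0.71 for Mmp12 and -0.88 to 2.24 for Mmp7.

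Some markers of other cells had a like order between the libraries, and others did not. The decidual hormone gene Prl8a2 was at 154.7, 354.6 and 60.4 FPKM in the controls, against 5.44, 26.5 and 0.664 FPKM in the knockout-labelled libraries, with the second library highest in both groups. Dio3, a thyroid hormone deiodinase on the same list, was at 19.2, 14.3 and 46.0 FPKM and at 7.46, 6.56 and 0.768 FPKM, and Hand2, a stromal transcription factor, was highest in control 1 and knockout 3. The whole decidual list, 8 genes with 6 tested and 0 called, summed to 125.8 to 392.5 FPKM in the controls and 21.1 to 55.8 FPKM in the knockout-labelled libraries, with Prl8a2 the largest part of the mean control sum. Of its tested genes, 3 were lower without overlap and 1 higher, against 8.16% and 20.8% of all genes tested. The higher one was Bmp2, with a mean of 1.33 FPKM in the controls and 1.765 FPKM in the other group. Wnt4, below the filter, was also higher without overlap (0.645 and 0.959 FPKM), and Alpl was higher with overlap (4.14 and 6.31 FPKM). The list thus did not move as a set. Of the neutrophil list, S100a8, a calcium-binding protein of these cells, was at 5.38, 6.38 and 2.15 FPKM and at 1.80, 6.88 and 0.484 FPKM. Csf3r, a tested gene of the same list, had another order, at 2.947, 2.619 and 2.691 FPKM and at 2.966, 3.185 and 3.125 FPKM. Its lowest value was in control 2. That list of 10 genes, 3 of them tested and 0 called, summed to 15.9, 18.2 and 7.37 FPKM and to 8.93, 20.4 and 5.50 FPKM, and its defining markers Ly6g and Ngp were at or near 0 throughout. The macrophage list, 10 genes with 0 called, summed to 1040 to 1239 FPKM and 1076 to 1200 FPKM, mostly from Lyz2, C1qa, C1qb and C1qc. Its members Mrc1 (32.4, 44.7 and 29.2 FPKM, then 24.1, 35.3 and 21.0 FPKM), Fcgr1 and Cd163 had the order seen in Mmp3, while Adgre1 was highest in knockout 3. The part of these cells in the levels of the cluster members was not tested.

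**Figure D4:**
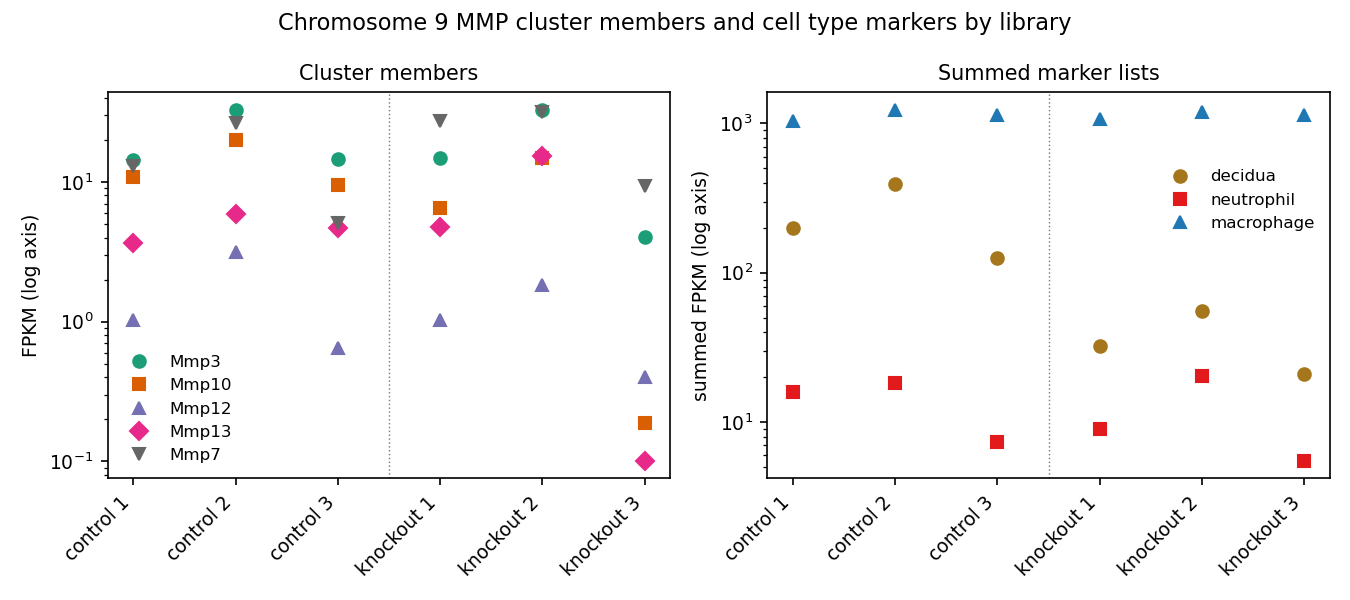
Left, FPKM of the 5 tested members of the chromosome 9 cluster in each library (log axis); right, summed FPKM of the decidua, neutrophil and macrophage marker lists in the same libraries (log axis). In control 2 and knockout 2 Mmp3 reached 33.0 and 32.9 FPKM, and in knockout 3 Mmp10 and Mmp13 dropped to 0.187 and 0.101 FPKM.

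Among the ADAMTS proteases, 0 of 14 tested passed limma, and 7 (50.0%, against 21.5% of all genes tested) had an unadjusted p under 0.05, 3 higher and 4 lower. The procollagen N-proteinases Adamts2, Adamts3 and Adamts14 remove the amino-terminal propeptide of fibrillar procollagens. Adamts14 was at 3.55, 3.54 and 2.07 FPKM in the controls, against 5.43, 5.45 and 4.78 FPKM in the knockout-labelled libraries. All knockout-labelled libraries lay above all controls, with a log2 difference of 0.64 (SE 0.16, adjusted p = 0.10 by limma). Adamts14 passed with array weights (adjusted p = 0.028) and without the third library of both groups (0.023), and its adjusted p ran from 0.023 to 0.26 over the alternatives. Adamts2, the far more abundant member, was at 41.6, 38.5 and 41.5 FPKM and at 43.8, 43.2 and 38.7 FPKM, with a 95% confidence interval of its log2 difference from -0.13 to 0.22. Adamts3 differed by -0.21 on the log2 scale (SE 0.11).

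The proteoglycanases, which cut versican and aggrecan, did not move as a group, with 4 of 6 tested above 0 and 2 below. Adamts1, known for its part in ovulation and follicle rupture, was at 64.7, 56.2 and 67.3 FPKM in the controls, against 51.9, 37.6 and 45.3 FPKM in the knockout-labelled libraries. The groups did not overlap, and the log2 difference was -0.48 (SE 0.13, adjusted p = 0.11 by limma, between 0.081 and 0.30 over the alternatives). Adamts5, 53.1 kb from Adamts1 on chromosome 16, had the same sign (-0.42, SE 0.18) with overlapping groups. Adamts8 was at 2.10, 1.28 and 1.79 FPKM and at 2.93, 2.53 and 3.74 FPKM, with no overlap and a log2 difference of 0.58 (SE 0.15, adjusted p = 0.11 by limma). Adamts15, 20.1 kb away on chromosome 9, differed by 0.36 (SE 0.19), with overlapping groups, and passed without the third library of both groups (adjusted p = 0.035, between 0.035 and 0.60 over the alternatives). Each of these 2 neighbouring pairs thus had 1 sign, opposite between the pairs.

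Adamts9, which also keeps versican in check, was at 23.1, 23.0 and 24.4 FPKM in the controls, against 25.8, 20.3 and 33.5 FPKM in the knockout-labelled libraries. Adamts4 was at 14.2, 14.4 and 13.3 FPKM and at 19.6, 17.0 and 10.1 FPKM. For both, the controls lay close together and the knockout-labelled libraries lay on either side of them, so the groups overlapped. Adamts20 was below the filter.

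Of the pair that cuts cartilage oligomeric matrix protein, Adamts12 was at 2.84, 3.17 and 3.28 FPKM in the controls, against 1.88, 2.59 and 2.07 FPKM in the knockout-labelled libraries, without overlap. Its log2 difference was -0.37 (SE 0.10, adjusted p = 0.12 by limma), while Adamts7 differed by 0.18 (SE 0.13). Adamts6 and Adamts10, which act on fibrillin microfibrils, had opposite signs. Adamts10 was at 10.2, 9.16 and 11.2 FPKM and at 11.0, 13.0 and 14.7 FPKM, a log2 difference of 0.31 (SE 0.12, adjusted p = 0.20 by limma). Adamts6 was at 1.40, 1.68 and 1.84 FPKM and at 0.701, 1.48 and 0.875 FPKM, a log2 difference of -0.40 (SE 0.16, adjusted p = 0.21 by limma). In both genes 1 knockout-labelled library fell within the control range. Adamts19, a member of no settled substrate, was at 2.14, 2.10 and 1.39 FPKM and at 1.06, 1.26 and 1.34 FPKM, without overlap but with a narrow gap. Its log2 difference was -0.37 (SE 0.13, adjusted p = 0.18 by limma), and it passed with array weights (0.024) and without the third library of both groups (0.038), with a highest adjusted p of 0.41 over the alternatives.

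All 3 TIMPs tested had negative differences and none passed limma. Timp2, which both inhibits MMPs and helps Mmp14 bind the Mmp2 precursor, was at 187.0, 164.8 and 213.7 FPKM in the controls, against 149.2, 162.8 and 126.1 FPKM in the knockout-labelled libraries. The highest knockout-labelled library lay just under the lowest control, and the log2 difference was -0.37 (SE 0.13, 95% confidence interval -0.69 to -0.05, adjusted p = 0.19 by limma). Timp3, the TIMP bound to the matrix and the main inhibitor of ADAMTS proteases, was at 44.0, 36.0 and 44.4 FPKM and at 31.7, 37.0 and 36.7 FPKM. Its log2 difference was -0.23 (SE 0.11, adjusted p = 0.28 with limma), and control 2 lay within the range of the other group. Timp1, the soluble inhibitor induced by growth factors, was at 33.9, 40.9 and 31.7 FPKM and at 32.2, 35.8 and 29.7 FPKM, with a log2 difference of -0.12 (SE 0.12). The sign of each of the 3 stayed negative under every alternative run, over ranges of -0.46 to -0.17 for Timp2, -0.33 to -0.16 for Timp3 and -0.19 to -0.012 for Timp1, whose difference was nearest 0 without control 2. Timp4 was hardly present, at 0.028, 0.028 and 0.055 FPKM in the controls and 0.009, 0 and 0.009 FPKM in the knockout-labelled libraries, too low for a test or a fold.

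The summed level of the 4 TIMPs was 264.9, 241.8 and 289.8 FPKM in the controls and 213.2, 235.6 and 192.5 FPKM in the knockout-labelled libraries, while the 23 MMPs summed to 334.3, 405.9 and 351.1 FPKM and to 360.3, 402.5 and 337.6 FPKM. The MMP sums covered the same range in both groups, with means of 363.8 ± 37.4 and 366.8 ± 32.9 FPKM (SD, n = 3 each), and their log2 ratio of 0.01 turned negative with median-of-ratios scaling (-0.05) and quantile normalization (-0.0085), and without control 1 (-0.045), control 3 (-0.013) or knockout 2 (-0.060). The 19 ADAMTS proteases summed to 175.2 ± 6.5 and 167.9 ± 9.7 FPKM. The TIMP sums did not overlap between groups, with means of 265.5 ± 24.0 and 213.8 ± 21.6 FPKM, and Timp2 alone made up most of them. The ratio of summed MMP to summed TIMP level was 1.26, 1.68 and 1.21 in the controls and 1.69, 1.71 and 1.75 in the knockout-labelled libraries, with control 2 next to the other group. These sums are descriptions, and no test was made on them.

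**Figure D5:**
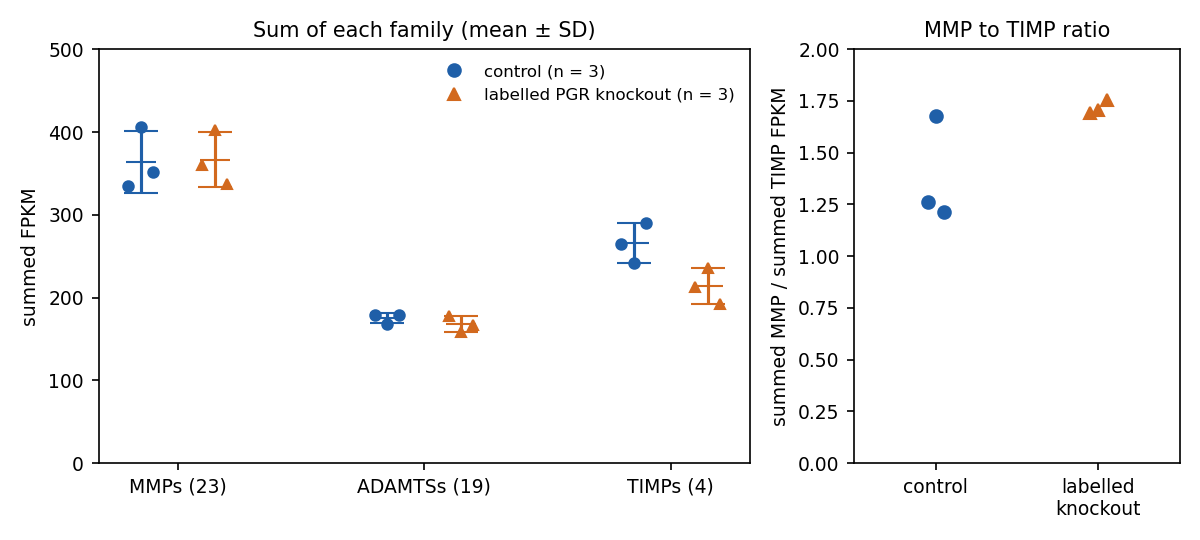
Left, summed FPKM of the 23 MMPs, 19 ADAMTS proteases and 4 TIMPs in each library, with group means and SD; right, the ratio of summed MMP to summed TIMP FPKM in each library. TIMP sums were 241.8 to 289.8 FPKM in the controls and 192.5 to 235.6 FPKM in the knockout-labelled libraries, and the ratio of control 2 (1.68) lay near those of the knockout-labelled libraries (1.69 to 1.75).

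Of the members below the filter, Mmp28 (0.564 to 0.754 FPKM over the 6 libraries) and Mmp16 (0.292 to 0.488 FPKM) had the highest means, and their groups overlapped. Mmp27 had groups that did not overlap, at 0.355, 0.382 and 0.357 FPKM in the controls and 0.344, 0.320 and 0.178 FPKM in the knockout-labelled libraries, a small gap at a low level. Mmp8, the collagenase of neutrophils, was at 0.176, 0.654 and 0.066 FPKM and at 0.066, 0.167 and 0.033 FPKM, with the second library again highest in each group. Mmp1a, Mmp1b, Mmp20, Mmp21 and Mmp24 did not exceed 0.027 FPKM in any library. Adamts13, the protease of von Willebrand factor, Adamts16, Adamts17, Adamts18 and Adamts20 stayed at or below 0.4 FPKM. The sources used here do not state whether strand was kept, and exons of some members overlap genes on the other strand in GENCODE M21. Among them, 1733 exon bases were shared by Timp3 and Syn3, 1381 by Adamts9 and A730049H05Rik and 789 by Mmp19 and Tmem198b. Timp1 lies within Syn1, with no shared exon bases. Reads of such pairs may not be told apart.

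Genes that activate, restrain or receive the action of the members were read from lists chosen with earlier results of these data known. The share to set beside the calls of each list is 3.34% of all genes tested, 1.34% higher and 1.99% lower. The list of activators and the plasmin system, called activators below, also holds inhibitors. Of its 12 genes tested, 1 was higher and 0 lower, with a median of 0.23. That gene was Serpine2, an inhibitor of plasminogen activators and thrombin, at 30.1 ± 5.4 and 52.5 ± 2.4 FPKM (SD, n = 3 each, log2 difference 0.80, adjusted p = 0.033 by limma). Without control 1, knockout 1 or knockout 2 the list had 0 calls. Plau (log2 difference -1.08, adjusted p = 0.15 by limma) and Plaur (-0.65, adjusted p = 0.11) were lower without overlap. Of the genes tested in this list, 4 were higher without overlap and 3 lower, against 20.8% and 8.16% of all genes tested. Of 14 other inhibitors and cofactors tested, 1 was higher and 2 lower. A2m, the broad protease trap alpha-2-macroglobulin, rose from 5.89 ± 1.22 to 17.7 ± 6.2 FPKM (log2 difference 1.41, SE 0.24). Spock2, a testican proteoglycan, fell from 15.4 ± 1.1 to 6.46 ± 1.80 FPKM, and Pcolce2, an enhancer of procollagen C-proteinase, from 1.80 ± 0.16 to 0.811 ± 0.239 FPKM. The adjusted p of these 3 with limma lay between 0.029 and 0.046, and 0 of the list were called without control 1, control 2 or knockout 2. With pseudocounts of 0.1 and 0.5, and when rescaled to a sum of 1000000, 1 of the 2 lower calls was lost. The median of this list was -0.14.

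Of 5 ADAMTS-like genes tested, 1 was higher, Adamtsl2, a matrix protein without protease activity, at 2.41 ± 0.67 and 10.7 ± 1.3 FPKM (log2 difference 1.79, adjusted p = 0.0045 by limma). It is named like the members but is not one of the proteases, and the median of its list was -0.14. The 10 ADAM, astacin and related proteases tested had 0 calls by limma. An unadjusted p under 0.05 was found for 3, against 21.5% of all genes tested: Adam22 (log2 difference 0.44), Adam9 (-0.41) and Adam15 (-0.31). Of 26 matrix substrates tested, 3 were lower and 0 higher, with a median of -0.12: fibronectin (Fn1, log2 difference -2.02) and the basement membrane collagen chains Col4a1 (-0.46) and Col4a2 (-0.47). With control 1, control 2, knockout 1 or knockout 2 left out, 1 substrate was called. The count of 0 higher did not hold throughout: 1 substrate was higher with a minimum mean of 5 FPKM, a sum of 1000000, quantile normalization, no trend and without knockout 3, 2 without library 3 of both groups and 3 with array weights. Among 13 AP-1 and ETS factors tested, 0 passed limma and the median was 0.03. An unadjusted p under 0.05 was found for 3, against 21.5% of all genes tested. These were Elf3, an epithelial ETS factor (0.93, adjusted p = 0.053 with limma), Jun (-0.45) and Fosl2 (0.38), and without knockout 3 there was 1 call.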

How the data were processed

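RNA of 6 uterine samples of gestation day 13 was sequenced, 3 control and 3 labelled as a PGR knockout in the myometrium. The authors deposited 1 FPKM column for each sample, with 24964 gene symbols. The submitters' processing notes name cutadapt 2.7, STAR 2.7.0f, DESeq2 1.24.0 and build mm10, with no role or order. The sources used here do not give the counting program, the annotation or the handling of shared reads. FPKM does not correct for a few abundant transcripts that shift all others.

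The difference, knockout-labelled minus control, was fitted with limma 3.58.1 in R 4.3.3 (intensity trend, no covariate) on log2(FPKM + 1), over the 12500 genes that averaged 1 FPKM or more, with Benjamini-Hochberg adjustment over all of them and a threshold of 0.05. This scale understates changes of low genes. Described in full were members that passed, all TIMPs, members with an unadjusted p under 0.05 and the 5 most abundant MMPs and ADAMTS proteases. Other members with values were chosen after these were seen. The members and lists were chosen with earlier results of these data known. Positions came from GENCODE M21 and promoters from RefSeq. The fit was tested on simulated data. The alternatives were other pseudocounts, filters, scalings and variance models, a replicate block, and fits with libraries left out.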

Additional observations from a re-analysis of the deposited data

How the results depend on the processing

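The call of Mmp17 as lower held under every alternative except no filter and the fit without control 2. With no filter, 0 members, 0 activators and 0 of the other inhibitors were called. A minimum mean of 5 FPKM gave 1 call among AP-1 and ETS factors, as did quantile normalization, and median-of-ratios scaling gave 5 among the matrix substrates. Array weights gave 1 higher and 3 lower members (13.3%, against 14.2% of all genes tested), 3 ADAM and related proteases, 2 ADAMTS-like genes, 4 AP-1 and ETS factors, 10 substrates and 6 activators. Without library 3 of both groups, 2 members were higher and 3 lower (16.7%, against 10.2%), the members' median was 0.0058, and the calls were 1, 2, 3, 7 and 3 in these lists in the same order. With the replicate block, Mmp17 kept its call (adjusted p = 0.029 by limma), and 1 substrate, 0 activators and 0 other inhibitors were called. Whether the numbers pair the libraries was not settled. Deviations of same-numbered libraries from their group correlated at -0.136, 0.0789 and -0.132 for numbers 1, 2 and 3. Control 2 and knockout 2 each correlated best with their own number, while the other libraries did not. Within a group of 3 libraries such deviations depend on each other, so these correlations cannot decide the question.

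With 1 library left out, 0 members were higher and between 0 and 1 lower, and the members' median lay between -0.19 and 0.019. Calls lay between 1 and 4 for substrates, 0 and 2 for activators, 0 and 3 for other inhibitors, 1 and 2 for ADAMTS-like genes and 0 and 1 for AP-1 and ETS factors. In those fits, and the one without library 3 of both groups, the log2 differences with changing sign ranged from -0.078 to 0.36 for Pgr, -0.080 to 0.37 for Adamts4, -0.034 to 0.31 for Adamts9, -1.18 to 0.20 for Mmp3, -0.64 to 0.12 for Mmp9, -0.53 to 0.00072 for Mmp12, -1.18 to 0.77 for Mmp13, -0.35 to 0.55 for Mmp15 and -0.18 to 0.024 for Mmp23. None of these genes was called in the reported fit. Signs also turned for Mmp15 when rescaled to a sum of 1000000 (0.0026) and with array weights (0.49), for Mmp13 with array weights (0.19), for Adamts2 with median-of-ratios scaling (-0.016), and for Pgr with that scaling (-0.012) and quantile normalization (-0.0054). The causes were not tested. The table gives no counts, so how far depth limits the members below 1 FPKM could not be computed.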
